A study of Mus musculus with 6 samples.

Results

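The genes described here encode the sliding clamp of the replication fork, the loader that places it on DNA, and the enzymes that turn Okazaki fragments into continuous strand. They are Pcna, Rfc1, Rfc2, Rfc3, Rfc4, Rfc5, Fen1, Lig1, Dna2 and Rnaseh2a, chosen by function from the named genes of the array. A probe was counted to a gene when its accession, without the version, belonged to that gene in RefSeq. The 10 genes are 10 of the 19988 genes named on the array, all 10 were among the 13132 tested, and they were represented by 15 probes.

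By its title, the study is about neural stem and progenitor cells, in which S phase becomes shorter as they commit to making neurons. All embryos were Tis21-GFP heterozygous knock-in mice on a C57BL/6J background at embryonic day 14.5, and Tis21 is another name of Btg2. Cells of the dorsal telencephalon, the future cerebral cortex, were dissociated, stained with a vital DNA dye and sorted for cells part way through copying their DNA. The S-phase cells were then compared as Tis21-GFP positive cells (3 arrays) and Tis21-GFP negative cells (3 arrays). Both groups carry the same knock-in allele and were separated by the reporter signal alone. GFP negative cells are therefore a mixture of everything in the S-phase gate without the reporter. Each replicate pooled 30 hemispheres from 15 embryos to reach about 200000 cells, and the authors used the 3 best of their experiment sets.

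At a replication fork the lagging strand is made as short Okazaki fragments, each begun by a primer of RNA and DNA. Replication factor C, a complex of a large subunit (Rfc1) and 4 small ones (Rfc2 to Rfc5), opens the ring-shaped clamp PCNA and closes it around the primed DNA, where it holds the polymerase in place. When a polymerase runs into the next fragment it lifts a flap, which the nuclease FEN1 removes, or DNA2 where the flap is long, while RNase H2 cuts RNA within the hybrid and DNA ligase I seals the nick.

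All 10 genes gave higher scaled signals on each Tis21-GFP positive array than on any Tis21-GFP negative array. In 9 of 10 the difference passed the test, with 0 called lower, in a limma fit over all 13132 genes with Benjamini-Hochberg adjustment and a threshold of 0.05. Over all tested genes 12.8% were called higher and 13.1% lower, 25.9% in either direction. Groups that did not overlap were found for 46.8% of all tested genes, and for 28.1% with positive above negative. The largest difference of the set was that of the flap nuclease gene Fen1, at 2.51-fold, and the 1 gene that did not pass was Rfc1. The median log2 difference of the 10 genes, positive minus negative, was 0.88, against 0.12 for all tested genes. Signals are given as log2 processed intensity minus the 75th percentile of the same array, so a value states where a probe stood on its array, and values of different probes are not comparable.

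Of all probes, 28520 to 29278 stood well above background on positive arrays, against 29319 to 31277 on negative ones, and 0 spots were saturated. Correlations across genes were 0.983 to 0.992 within groups and 0.954 to 0.972 between them. Btg2, whose locus carries the reporter, was higher in positive cells by 0.77 ± 0.17 on the log2 scale (SE, limma, adjusted p = 0.0139). The dorsal markers Emx1, Emx2, Pax6 and Lhx2 stood well above background on all 6 arrays. Markers of other cell types moved with the sort. All 7 markers listed for intermediate progenitors (Eomes, Neurog2, Btg2, Insm1, Hes6, Dll1 and Elavl4) were called higher in positive cells. Of these, Btg2 is the locus of the sort reporter and is no separate evidence of cell type. The scaled signals of the list, summed off the log scale and put back into log2, gave 7.72 to 7.95 on positive arrays. On negative arrays they gave 5.01 to 5.53. The sums of the lists below were made the same way, and the brightest probes weigh most in them. Of 8 radial glial markers 7 were called lower, with sums of 7.11 to 7.39 and 7.98 to 8.22. Of 10 tested markers of microglia and macrophages 10 were called lower (sums 2.10 to 2.97 on positive and 3.84 to 4.23 on negative arrays), with P2ry12 above background on 0 positive and 3 negative arrays. Of 7 tested meningeal and mesenchymal markers 7 were called lower (-0.68 to -0.13 and 2.19 to 3.18), with Col3a1 and Lum above background on 0 positive and 3 negative arrays, while Foxc1 was so on 0 arrays of either group. Of 7 tested endothelial and pericyte markers 5 were called lower, with Pdgfrb, Rgs5 and Abcc9 above background on 0 positive and 3 negative arrays. The untested Tek was so on 0 arrays of either group and Cdh5 on 0 positive and 1 negative. The sums of this list ran the other way from its calls (3.25 to 3.39 on positive and 3.02 to 3.23 on negative arrays), and Kdr, named after its value was seen, stood at 0.45 and did not pass. Of 10 neuronal markers 5 were called higher and 3 lower (7.34 to 7.61 and 6.69 to 7.12), and of 11 tested markers of G2 and mitosis 3 were called higher and 0 lower (8.48 to 8.78 and 7.98 to 8.30). All 11 markers of G2 and mitosis had a positive difference, as did 7901 of the 13132 tested genes. The median of the 11 was 0.52, against 0.12 for all tested genes, and 8 of the 11 did not pass. Whether the differences of the replication genes are separate from these was not tested. Of 6 tested ventral telencephalic markers 0 were called higher and 1 lower, and of 4 tested erythroid markers 0 in either direction. The filter needed all 3 arrays of only 1 group. Col1a1, Nid1 and the ventral marker Gad1 were above background on 1 positive array, and Cx3cr1 on 2. Like P2ry12, Col3a1, Lum, Pdgfrb, Rgs5 and Abcc9, they entered the test only through the negative arrays. Their lower calls are therefore not independent of the filter. The part of these cell types in the differences below was not tested. In such bulk samples a smaller number of cells of a type and less RNA per cell cannot be told apart.

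**Figure D1:**
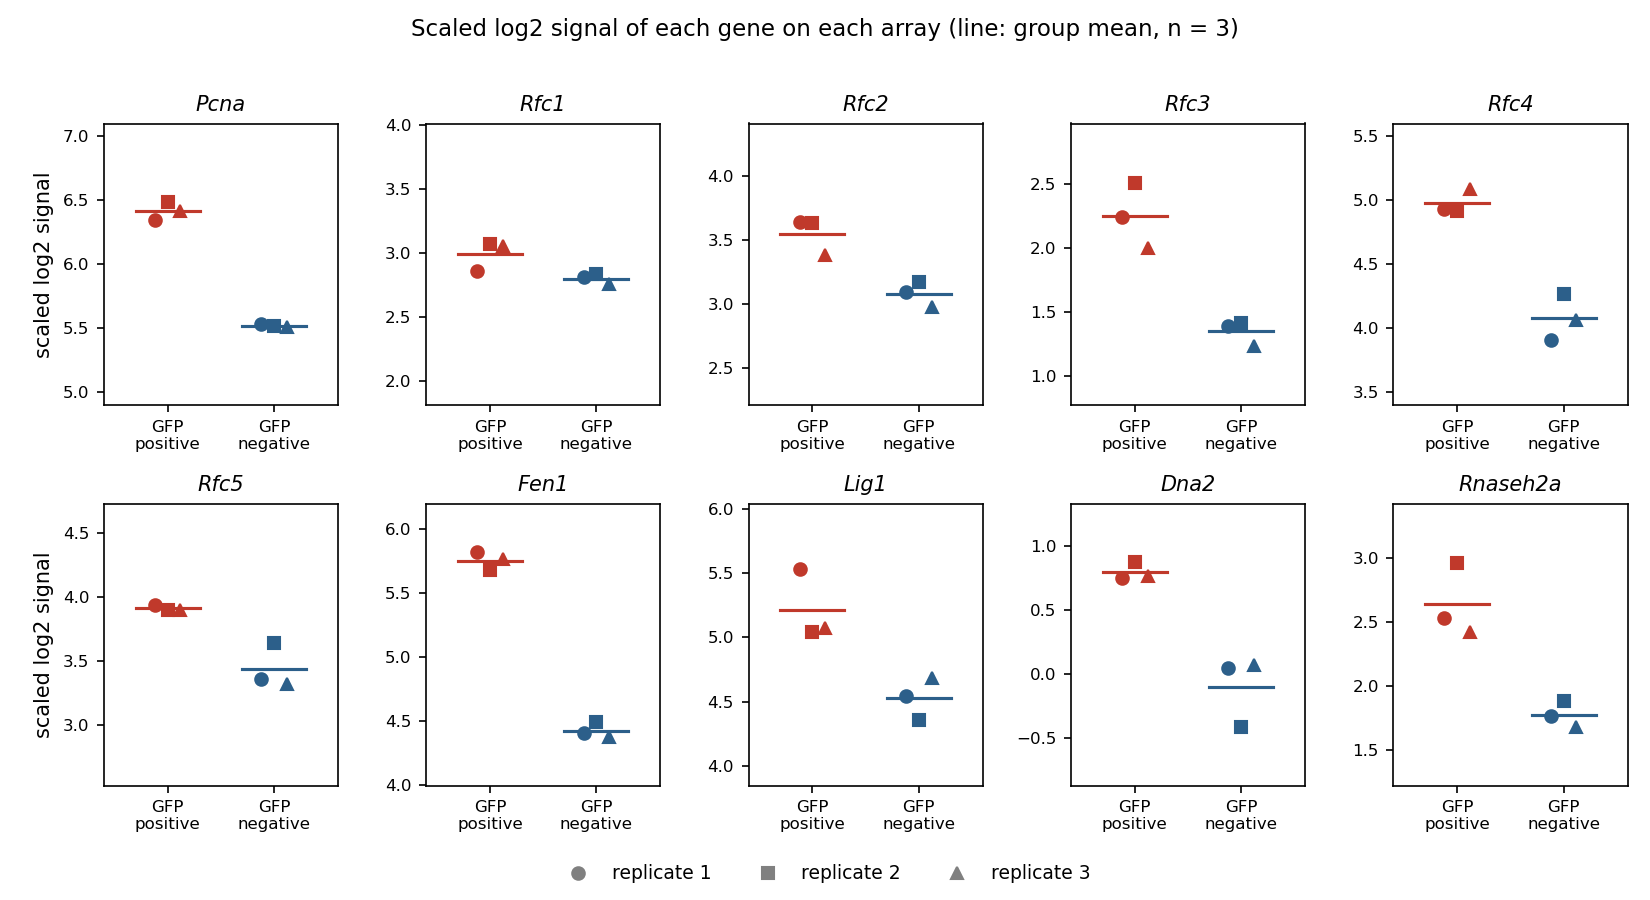
Scaled log2 signal (vertical axes, log2 processed intensity minus the array's 75th percentile) of each of the 10 genes, in Tis21-GFP positive cells on the left of each panel and negative cells on the right. Marker shapes give the replicate and lines the group means (n = 3). Each vertical axis spans the same number of log2 units around its own gene. Fen1 averaged 5.76 in positive and 4.43 in negative cells, and Rfc1 2.997 and 2.80.

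The promoters of the genes were read because most of the set moved the same way. RefSeq windows of 300 bases (250 before and 50 from the transcription start on, build GRCm38.p6) were at hand for 9 of the 10 genes, all but Rfc2. Fen1 had 2 windows and Lig1 3, for different annotated starts. The second Fen1 window holds 0 matches to the E2F strings below and is not printed. Both strands were searched for 4 strings of 7 letters that the E2F factors, regulators of S-phase genes, are known to bind: TTCCCGC and its variant TTCGCGC, and likewise TTGCCGC with its variant TTGGCGC. At least 1 string stood in the windows of 5 of 9 genes (Rfc1, Rfc3, Rfc4, Fen1 and Lig1), against 10.9% of 27025 genes with a window and 9.6% of 32851 windows. None of the strings was in the windows of Pcna, Rfc5, Dna2 or Rnaseh2a. The string CCAAT, on either strand, stood in 4 of 9 (Pcna, Rfc1, Rfc3 and Rnaseh2a), against 41.1% of genes. The windows of the gene with the largest difference (Fen1), of 2 loader subunits that were called higher (Rfc3 and Rfc4), of the loader subunit that did not pass (Rfc1) and of the clamp (Pcna) are printed 5′ to 3′ on the gene's strand, with matches to the E2F strings in capitals. In Rfc1 the capitals hold a pair of overlapping matches, 1 on each strand, which also overlap a CCAAT.
Fen1, chr19:10203872-10204171, minus strand: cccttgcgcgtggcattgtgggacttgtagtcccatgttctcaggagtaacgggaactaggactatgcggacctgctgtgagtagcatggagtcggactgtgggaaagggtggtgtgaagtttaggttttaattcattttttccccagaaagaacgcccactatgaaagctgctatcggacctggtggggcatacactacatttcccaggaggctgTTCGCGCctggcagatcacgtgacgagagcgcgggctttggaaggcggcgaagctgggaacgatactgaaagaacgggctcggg
Rfc3, chr5:151651159-151651458, minus strand: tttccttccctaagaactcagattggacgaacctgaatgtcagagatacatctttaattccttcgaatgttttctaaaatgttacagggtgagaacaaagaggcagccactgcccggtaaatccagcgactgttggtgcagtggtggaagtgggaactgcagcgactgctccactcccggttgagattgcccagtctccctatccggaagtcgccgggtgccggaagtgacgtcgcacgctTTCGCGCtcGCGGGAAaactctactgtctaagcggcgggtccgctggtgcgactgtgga
Rfc4, chr16:23127681-23127980, minus strand: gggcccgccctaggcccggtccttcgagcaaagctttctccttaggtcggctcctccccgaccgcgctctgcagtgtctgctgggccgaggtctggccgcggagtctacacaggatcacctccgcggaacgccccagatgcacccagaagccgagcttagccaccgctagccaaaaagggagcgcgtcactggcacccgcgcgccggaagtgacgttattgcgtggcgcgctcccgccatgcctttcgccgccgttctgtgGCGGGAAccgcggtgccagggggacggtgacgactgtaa
Rfc1, chr5:65335590-65335889, minus strand: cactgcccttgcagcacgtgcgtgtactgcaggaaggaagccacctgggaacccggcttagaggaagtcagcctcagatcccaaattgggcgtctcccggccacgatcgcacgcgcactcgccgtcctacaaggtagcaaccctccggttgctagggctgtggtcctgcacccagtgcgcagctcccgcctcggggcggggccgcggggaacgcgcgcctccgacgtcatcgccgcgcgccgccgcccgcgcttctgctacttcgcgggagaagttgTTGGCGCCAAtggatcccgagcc
Pcna, chr2:132253131-132253430, minus strand: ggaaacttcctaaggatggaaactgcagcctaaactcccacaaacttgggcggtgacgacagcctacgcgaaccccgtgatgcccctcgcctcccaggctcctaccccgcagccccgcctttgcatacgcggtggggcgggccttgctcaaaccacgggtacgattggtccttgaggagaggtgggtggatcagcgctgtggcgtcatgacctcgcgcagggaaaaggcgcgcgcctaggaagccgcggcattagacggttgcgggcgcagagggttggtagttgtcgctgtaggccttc
The Fen1 match lay at bases -34 to -28 from the annotated start (the start base counted as 1, the base before it as -1), those of Rfc3 at -9 to -3 and 1 to 7, that of Rfc4 at 12 to 18, and those of Rfc1 at 28 to 34 and 31 to 37. These are matches of letters and not binding measurements. Among the genes whose differences passed, Fen1, Rfc3, Rfc4 and Lig1 hold such strings, and Pcna, Rfc5, Dna2 and Rnaseh2a hold none in these windows. Rfc1, whose difference did not pass, holds them. Whether E2F factors act on these genes here was not tested.

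Pcna encodes the clamp itself. Its scaled log2 signal was 6.34, 6.49 and 6.42 on positive arrays 1, 2 and 3, against 5.54, 5.52 and 5.51 on negative arrays 1, 2 and 3. The lowest positive array lay well clear of the highest negative array, and the 3 negative arrays were nearly equal. The log2 difference was 0.90 ± 0.12 (SE, n = 3 per group, limma, adjusted p = 0.00156), a 1.86-fold higher signal with a 95% interval of 1.53 to 2.26. The 3 same-numbered differences were 0.81, 0.97 and 0.91. Before any scaling between arrays, Pcna intensities of 25270, 26301 and 18186 on positive arrays also lay above the 15296, 15594 and 12924 on negative arrays.

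Of the 5 loader subunits, 4 rose and 1 did not pass. Rfc3, a small subunit, had 2.24, 2.51 and 2.00 in positive cells, against 1.39, 1.42 and 1.24 in negative cells. Rfc4, another small subunit, had 4.93, 4.91 and 5.08 in positive cells, against 3.91, 4.26 and 4.06 in negative cells. Neither gene overlapped between the groups, and for Rfc3 the positive arrays were more spread than the negative ones. Rfc3 rose by 0.90 ± 0.16 (SE, limma, adjusted p = 0.00555) and Rfc4 by 0.90 ± 0.14 (adjusted p = 0.00338), which is 1.87-fold and 1.86-fold. The second Rfc4 probe, which was dimmer, gave 0.84 ± 0.13.

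The other small subunits moved less. Rfc2 had 3.64, 3.63 and 3.38 in positive cells, against 3.09, 3.17 and 2.98 in negative cells. Rfc5 had 3.94, 3.897 and 3.901 in positive cells, against 3.36, 3.64 and 3.32 in negative cells. The groups were separate for both genes, and for Rfc5 negative replicate 2 came closest to the positive arrays. Rfc2 rose by 0.47 ± 0.14 (SE, limma, adjusted p = 0.0396) and Rfc5 by 0.47 ± 0.14 (adjusted p = 0.0395), 1.38-fold and 1.39-fold. Both stood close to the threshold, and in 13 of 19 other settings each did not pass. The adjusted p (limma) reached 0.255 for Rfc2 and 0.27 for Rfc5. Both differences stayed positive in all 19, but most of these settings could not turn a sign. Such settings either left the difference unchanged or left out arrays of groups that did not overlap. The Rfc2 call was lost without positive replicate 1 (0.43) or 2 (0.43) and without negative replicate 1 (0.48), 2 (0.51) or 3 (0.42). The Rfc5 call was lost without positive replicate 1 (0.46), 2 (0.48) or 3 (0.48) and without negative replicate 1 (0.43) or 3 (0.41).

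Rfc1 encodes the large subunit that makes the complex the loader of PCNA. Its signal was 2.86, 3.07 and 3.06 in positive cells, against 2.81, 2.84 and 2.76 in negative cells. Positive replicate 1 lay just above the highest negative array, and the other two positive arrays stood higher. The difference of 0.19 ± 0.13 did not pass (SE, limma, adjusted p = 0.287), and its 95% interval ran from -0.10 to 0.49, which takes in both a small decrease and the size seen for Rfc2 and Rfc5. The sign of the Rfc1 difference turned with the scaling, to -0.0071 after quantile normalization and -0.0085 in the authors' processed values. Before scaling, Rfc1 intensities of 2258, 2459 and 1773 in positive cells overlapped the 2318, 2438 and 1918 in negative cells.

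Differences between loader genes within an array are not altered by a constant shift of a whole array, although quantile normalization can alter them. Rfc1 minus the mean of Rfc2 to Rfc5 was -0.83, -0.67 and -0.53 on positive arrays, against -0.12, -0.28 and -0.14 on negative arrays. The groups did not overlap, and the change of Rfc1 was smaller than that of the small subunits by 0.49 ± 0.10 on the log2 scale (SE, n = 3 per group). Pcna minus the mean of Rfc1 to Rfc5 was higher in positive cells by 0.31 ± 0.07, also without overlap. An exact two-sided permutation test that left the replicate numbers out gave p = 0.1 for each, the smallest that 3 unpaired arrays against 3 allow. The adjusted p was 0.1 over the 3 contrasts made, so neither could pass at 0.05. The direction of each contrast was kept in 18 of 18 other settings, with Rfc1 between -0.56 and -0.39 and Pcna between 0.24 and 0.38. Settings that only shift whole arrays, or change the variance model or the blocks, could not alter a contrast. Their part of that count is therefore no support.

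**Figure D2:**
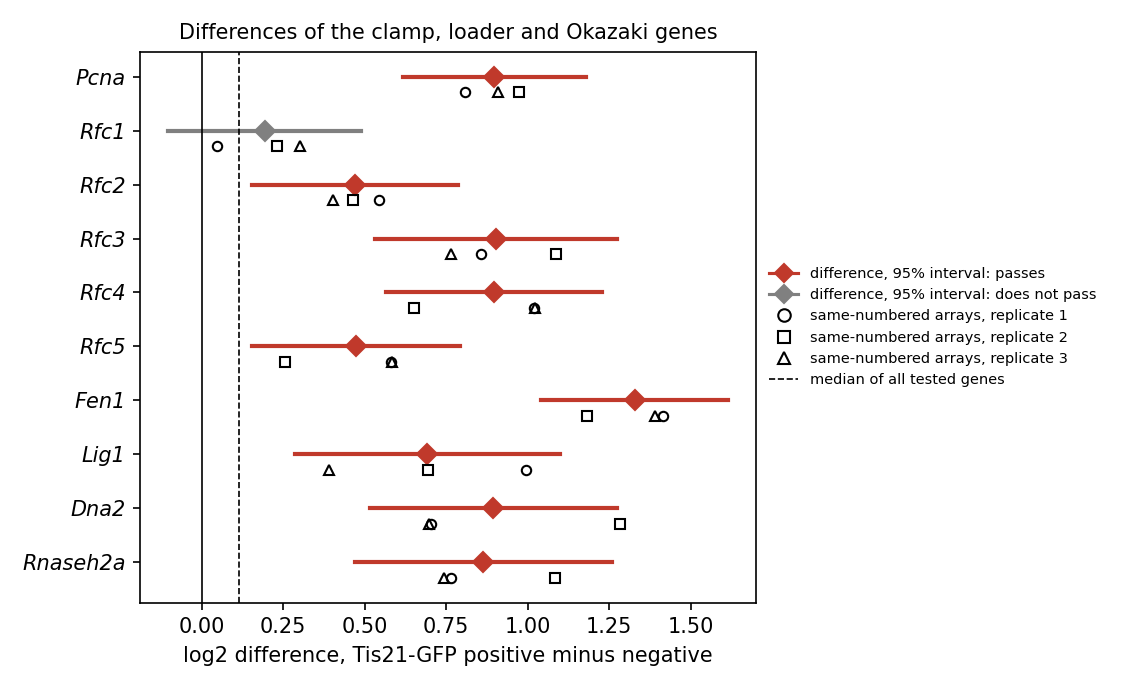
Log2 difference, Tis21-GFP positive minus negative (horizontal axis), of each gene with its 95% interval from limma (diamond and bar, red where adjusted p is below 0.05 and grey where not). Open symbols are the differences of same-numbered arrays and the dashed line is the median of all tested genes, 0.12. Fen1 stands highest at 1.33 and Rfc1 lowest at 0.19, with an interval that crosses 0.

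Among the enzymes of Okazaki fragment maturation, Fen1, the flap nuclease, moved most. Its signal was 5.82, 5.68 and 5.77 in positive cells, against 4.41, 4.499 and 4.38 in negative cells. More than 1 log2 unit separated the nearest arrays of the groups, and the spread within each group was small. Fen1 rose by 1.33 ± 0.12 (SE, n = 3 per group, limma, adjusted p = 0.000357), 2.51-fold with a 95% interval of 2.06 to 3.06, a larger difference than that of 98.2% of all tested genes. Same-numbered differences were 1.41, 1.18 and 1.39. Its unscaled intensities were 17591, 14995 and 11572 in positive cells, against 6996, 7702 and 5896 in negative cells.

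Lig1 encodes DNA ligase I, which seals the nick left after the flap is gone. It had 5.53, 5.05 and 5.07 in positive cells, against 4.54, 4.35 and 4.68 in negative cells. Positive replicate 1 stood apart from the other positive arrays, and the groups did not overlap. Lig1 rose by 0.69 ± 0.18 (SE, limma, adjusted p = 0.024), 1.62-fold with a 95% interval of 1.22 to 2.14, and same-numbered differences ran from 0.39 to 0.99. The call was lost in 8 of 19 other settings, among them the fit without positive replicate 1, where the difference was 0.53 (adjusted p = 0.0674, limma), the fits without negative replicate 1 (0.70) or 2 (0.61), and the authors' processed values, where it was 0.397. Fen1 minus Lig1 was 0.29, 0.63 and 0.70 on positive arrays, against -0.13, 0.15 and -0.30 on negative arrays, a difference of 0.64 ± 0.18 without overlap (exact permutation p = 0.1, adjusted p = 0.1).

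Dna2 encodes a nuclease and helicase that acts on long flaps. Its brighter probe gave 0.75, 0.87 and 0.76 in positive cells, against 0.05, -0.41 and 0.07 in negative cells. Negative replicate 2 lay below the other negative arrays, and all 3 positive arrays lay above all 3 negative ones. Dna2 rose by 0.89 ± 0.16 (SE, limma, adjusted p = 0.00632), 1.86-fold. Its dimmer probe, at intensities of 47.9 to 76.1 in positive and 30.5 to 46.7 in negative cells, gave a difference of 0.92 ± 0.23, so the 2 probes differed by much less than their errors. The Dna2 call was kept in all 19 other settings.

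Rnaseh2a encodes the catalytic subunit of RNase H2, which cuts the RNA strand of an RNA and DNA hybrid. Its brightest probe gave 2.53, 2.96 and 2.42 in positive cells, against 1.77, 1.88 and 1.68 in negative cells. Replicate 2 was the highest array in each group, and the groups did not overlap. Rnaseh2a rose by 0.86 ± 0.17 (SE, limma, adjusted p = 0.00858), 1.82-fold. The other three probes of the gene gave 0.58 ± 0.18, 0.76 ± 0.15 and 0.71 ± 0.16, the same direction in 4 of 4 probes.

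All 15 probes of the set cleared the background test on all 6 arrays, and each was printed as 1 spot. When each probe was fitted as its own row over 28908 tested probes, an alternative chosen after seeing the data, 7.51% of all probes were called higher. In that fit Rfc2 (adjusted p = 0.0662), Rfc5 (adjusted p = 0.0659), Rfc1 (adjusted p = 0.355) and 1 of the 4 Rnaseh2a probes (adjusted p = 0.0638, limma) did not pass, and the other 11 probes were called higher. The probes of Rfc4, Dna2 and Rnaseh2a differed in the same direction within each gene. Before scaling between arrays the groups overlapped for 6 of the 10 genes, and 4 (Pcna, Rfc4, Fen1 and Dna2) lay wholly higher in positive cells, as did 4.44% of all tested genes. In the authors' processed values 9 of the 10 lay wholly higher, all but Rfc1, against 19.9% of all tested genes.

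The genes were also compared with each other across the 6 arrays, as a description. Pearson's r over the 45 pairs of genes ran from 0.43 to 0.99, with a median of 0.89, and the arrays share the contrast between the groups. After the group means were taken out, the median r of the pairs was -0.05 (range -0.98 to 0.95). Averaged over the 10 genes, each centred on its own mean over all arrays, the set stood at 0.39, 0.44 and 0.32 on positive arrays, against -0.38, -0.35 and -0.40 on negative arrays. The 5 other tested genes that tracked this average most closely were Gsdmd, Mxd1, Serinc5, Chn2 and Dock11, with r of 0.9977 to 0.9986. Of 13122 genes outside the set 850 reached r of at least 0.95.

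Other genes of the same pathway were taken from lists by function. Of 9 tested genes of the other clamps and loaders, 2 were called higher and 0 lower, with a median difference of 0.28 and a range of -0.15 to 1.20. The alternative loaders share Rfc2 to Rfc5 and replace Rfc1 with Chtf18, Atad5 or Rad17. Atad5, whose loader takes PCNA off DNA, rose by 0.54 ± 0.15 (SE, limma, adjusted p = 0.0341), and Dscc1, a partner of Chtf18 in cohesion, by 1.20 ± 0.13 (adjusted p = 0.000604). Chtf18 at 0.28 ± 0.13 and Rad17 at 0.46 ± 0.16 did not pass (adjusted p = 0.152 and 0.0702), nor did the checkpoint clamp genes Rad9a at -0.01 and Rad1 at 0.44. Hus1b was not above background in either group as the filter requires and was not tested.

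Of 12 genes of lagging-strand synthesis 7 were called higher and 0 lower, with a median of 0.55. All 4 genes of polymerase alpha and primase, which lay down the primer, rose, led by Prim1 at 0.90 ± 0.12 (SE, limma, adjusted p = 0.00143) and Prim2 at 0.83 ± 0.14 (adjusted p = 0.00426). Pola2 rose by 0.82 and Pola1 by 0.68. The 4 subunit genes of polymerase delta, which extends the fragment on PCNA, did not pass, at 0.30 for Pold1, 0.41 for Pold2, 0.396 for Pold3 and -0.03 for Pold4. Of the single-strand binding protein, Rpa3 and Rpa2 rose by 0.75 and 0.44, and Rpa1 at 0.3995 did not pass. Wdhd1, which links the helicase to polymerase alpha, rose by 0.66.

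Of 10 other enzymes of primers, flaps and nicks 3 were called higher and 1 lower, with a median of 0.31. Rnaseh2b, a partner of Rnaseh2a in RNase H2, rose by 0.83 ± 0.13 (SE, limma, adjusted p = 0.00326), and Rnaseh2c, the third subunit, stood at 0.46 ± 0.15 and did not pass (adjusted p = 0.0615). Exo1, a nuclease related to Fen1, rose by 0.63, and Lig4, the ligase of end joining, by 0.61. The repair ligase gene Lig3 at -0.12 and its partner Xrcc1 at 0.05 did not pass. Samhd1, a hydrolase of deoxynucleotides that also acts at stalled forks, fell by 0.68 ± 0.13 (adjusted p = 0.00719, limma). Most tested markers of macrophages, radial glia, meninges, endothelium and pericytes given above were lower in the same cells. A link of Samhd1 to any of these cell types was not tested.

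Of 20 partners and modifiers of PCNA 9 were called higher and 0 lower, with a median of 0.43. The largest rise was that of Chaf1b at 0.99 ± 0.12 (SE, limma, adjusted p = 0.00111), a subunit of the chromatin assembly factor that PCNA brings to new DNA, and Chaf1a rose by 0.57. Dnmt1, the maintenance DNA methyltransferase, rose by 0.71, the licensing factor gene Cdt1 by 0.60, the mismatch repair genes Msh3 and Msh6 by 0.50 and 0.44, Pclaf by 0.48, Dtl by 0.44 and Ube2b by 0.396. Cdkn1a, which encodes the Cdk inhibitor p21 that also binds PCNA, had the 1 negative difference of the list, -0.67 ± 0.27, which did not pass (adjusted p = 0.101). Called-higher shares of these 4 lists were read against the 12.8% of all tested genes given above and were not tested as lists.

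**Figure D3:**
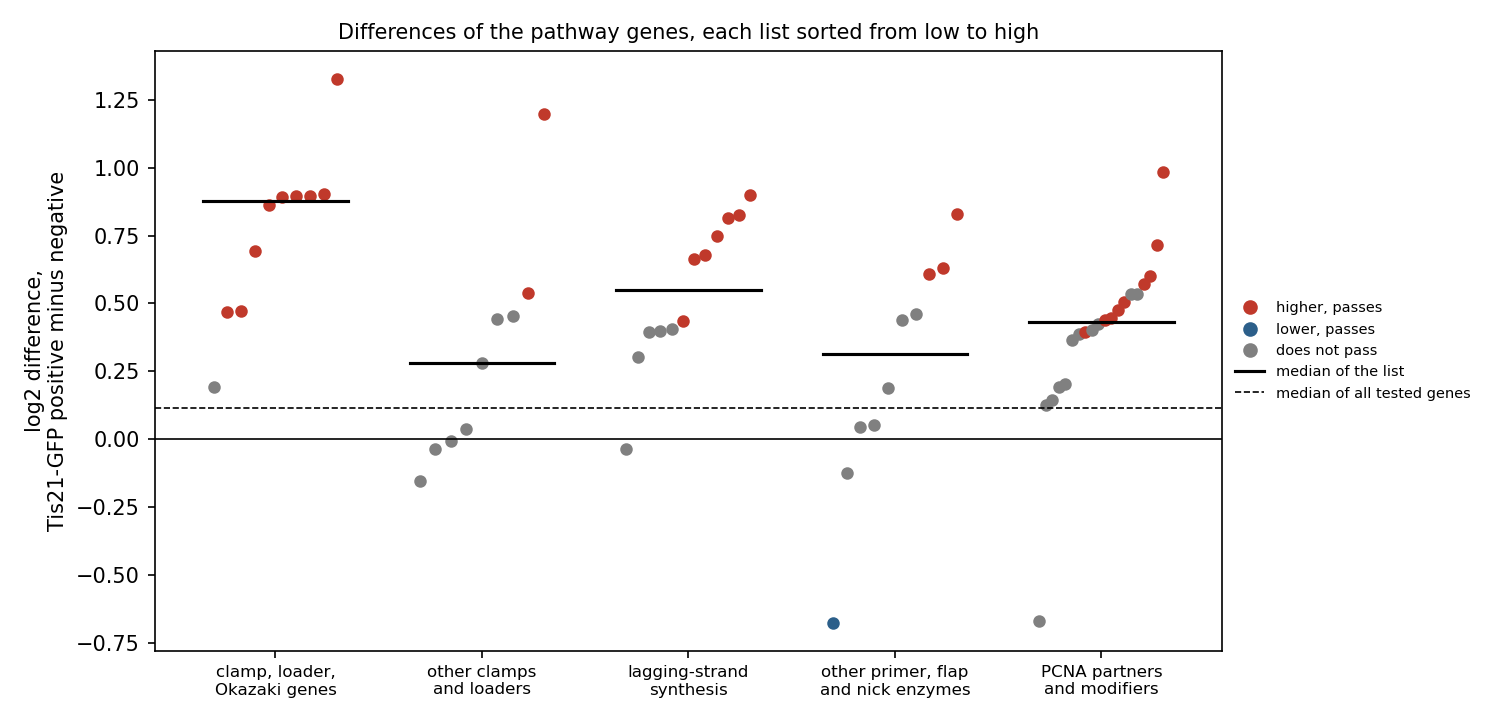
Log2 difference, Tis21-GFP positive minus negative (vertical axis), of each tested gene of the 10-gene set and of 4 related lists, sorted within each list along the horizontal axis. Red and blue points passed as higher or lower, grey points did not pass, thick lines are list medians (0.88 for the set, then 0.28, 0.55, 0.31 and 0.43) and the dashed line is the median of all tested genes. Samhd1 at -0.68 is the only blue point.

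The differences depended on the array scaling. Over all tested genes the median difference was 0.12 as reported, 0.30 with median centring, 0.02 with quantile normalization and -0.06 when the 75th percentile came from those probes alone that every array detected. Relative to the median of all tested genes, the reported differences were 1.21 for Fen1, 0.78 for Pcna and 0.08 for Rfc1. With quantile normalization, and equally with the authors' values, they were 1.03 for Fen1, 0.60 for Pcna and -0.03 for Rfc1. The median of the 10 genes ran from 0.62 with the authors' processed values to 1.06 with median centring. In each of 4 settings (quantile normalization, the authors' values, the 75th percentile over detected probes, and no filter on dim probes), 6 of the 10 genes were called higher, against 8.58%, 8.52%, 7.1% and 4.48% of all genes tested in the same 4 settings, in that order. Pcna, Fen1 and Dna2 passed in all 19 other settings, and Rfc3, Rfc4 and Rnaseh2a in 18 of 19.

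**Figure D4:**
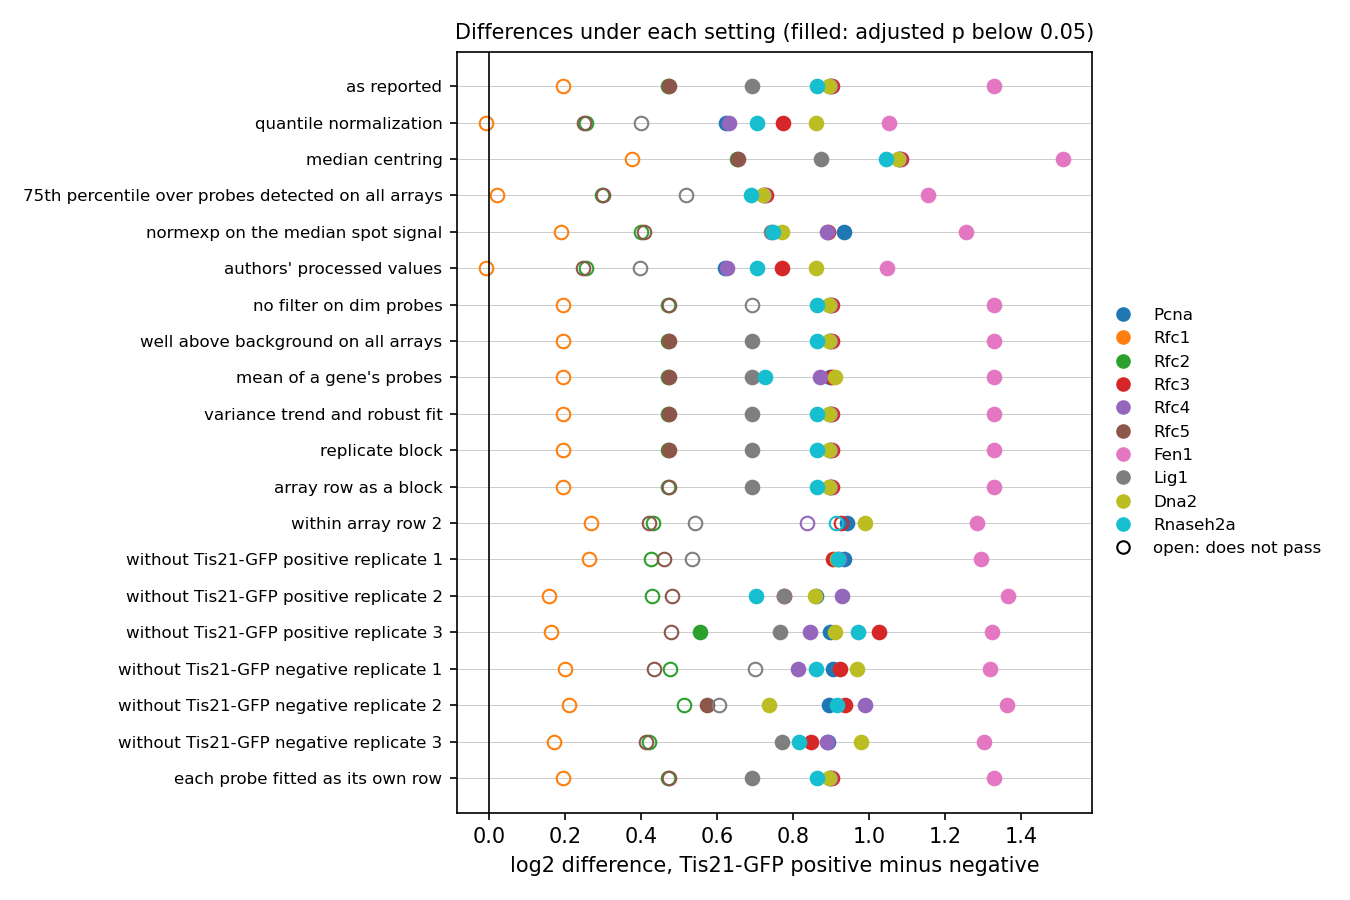
Log2 difference, Tis21-GFP positive minus negative (horizontal axis), of each of the 10 genes as reported and under each of 19 other settings (rows). Filled points passed with adjusted p below 0.05 and open points did not. Fen1 is rightmost in every row, and Rfc1 is leftmost and open in every row, falling to -0.0085 with the authors' processed values.

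The place of an array on the slide was examined as a technical grouping. Replicate 1 of both groups lay in row 1 and replicates 2 and 3 in row 2, on 1 slide. In row 1, with 1 array a group, the differences were 1.41 for Fen1, 0.81 for Pcna and 0.05 for Rfc1. Within row 2, with 2 arrays a group, 3 of the 10 genes passed, Pcna, Fen1 and Dna2, against 3.43% of all genes called higher. All 10 differences were positive in row 2, which was fixed in advance, since no gene overlapped between the groups over all arrays. There Rfc3 stood at 0.93, Rnaseh2a at 0.91 and Rfc4 at 0.84, close to or above their values over all arrays, with limma adjusted p of 0.0624, 0.0689 and 0.0507.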

How the data were processed

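Gene expression was measured on 6 1-colour Agilent arrays, from 50 ng of total RNA each, in Tis21-GFP positive and negative S-phase cells (3 arrays each). Per the file headers, the authors read spot intensity from the scans with Agilent Feature Extraction 10.7.1.1, and these deposited intensity values are not yet scaled from array to array. A second deposited table gives the authors' processed log2 values, with a median of 4.66 in every column. They tracked the log2 scanner values of the same array at r of 0.99948 or above. Their normalization is not given in the sources, and they served as an alternative.

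Control spots (leaving 59305 of 62976) and outlier spots were left out. From log2 processed intensity, the 75th percentile of the array's non-control probes was taken off, and spots of a probe were averaged. Probes were named through RefSeq (26370 of 55681 probes). A probe was tested when 1 group or both had it well above background on all 3 arrays, and a gene was represented by its brightest tested probe. The comparison used lmFit and eBayes of limma 3.58.1 (R 4.3.3), with Benjamini-Hochberg adjustment over 13132 genes and a threshold of 0.05, after tests on simulated data. Contrasts between genes (3) used exact permutation tests. The number of arrays limits the precision. No 2 arrays were identical (0 pairs).

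The 10 genes and the related lists were chosen with earlier results of these data known. All 10 genes are described with every probe. The text also names called members of the 4 related lists, by their brightest probe, and the 5 genes with the highest correlation to the set's mean. A normexp correction was run on the median spot signal, since the files used here hold no mean. The design text calls the experiments independent, and p-values measure the spread between these pooled samples. The labels number the replicates 1 to 3 in both groups, and the sample titles give same-numbered arrays a shared name. Same-numbered arrays had correlated deviations from their group means (0.23, 0.13 and 0.37), against -0.25 to 0.06 for others. Deviations within a group cancel out, so positive values for some pairs push the others down. From the labels' numbering and this check, the numbers were taken as pairs for the same-numbered differences and the replicate block alone. The main fit and the permutation tests did not use the pairs.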

Additional observations from a re-analysis of the deposited data

How the results depend on the processing

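Across 19 other settings, 151 of 190 differences kept their direction and side of the threshold, 37 lost the call, 0 gained one and 2 turned sign, both of Rfc1 (-0.0071 with quantile normalization, -0.0085 with the authors' processed values). The cause was not tested. Rfc2 and Rfc5 each lost the call in 13 settings and Lig1 in 8. Without 1 array at a time, 6 to 8 of the 10 genes were called higher (5.71% to 13.1% of all tested genes), and within array row 2, with fewer arrays, 3. Over all genes, 1687 were called higher and 1716 lower. Higher calls numbered 933 with the 75th percentile of detected probes, 1120 with the authors' processed values, 895 with no filter on dim probes, 458 within array row 2 (with 1042 lower) and 761 to 1732 without 1 array. The lowest counts came without Tis21-GFP negative replicate 1 (761), negative replicate 3 (780) and positive replicate 1 (1057). Higher calls were 49.6% of all calls as reported, 65.8% with median centring, 29.1% with the detected-probe percentile, 39.4% with the authors' values, 39.6% with quantile normalization, 39.4% with no filter on dim probes and 30.5% within row 2. With the replicate block, 2016 genes (15.4%) were called higher and 1967 lower, 9 of the 10 genes were called higher, and no call of the 10 genes changed. The 3 contrasts between genes kept their sign in 18 of 18 settings. Those that shift whole arrays or change only the filter, variance model or blocks could not alter them. Fits on fewer arrays could not turn their sign, since the groups did not overlap. Fen1 minus Lig1 ran from 0.51 to 0.76. Depth has no counterpart here, and the dimmest probe of the set, of Dna2, was well above background on all 6 arrays.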
